A study of Homo sapiens with 3 samples.

Results

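The comparison of PTK7 siRNA with control siRNA in HepG2 (an established line from a human liver tumour) rests on 2 of the 3 arrays of the series. One array carries RNA of cells transfected with a Silencer Select siRNA against PTK7, and the other RNA of cells transfected with a negative control siRNA. Both cultures received 10 nM siRNA with a lipid transfection reagent and were collected 72 h later. Members are the probes with a value on both arrays in the authors' deposited table, 21488 of 24460, and they name 15777 of the 17559 genes on the array. A villin siRNA array completes the series, shares the control array, and enters here only in the scaling and as a value set beside others.

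PTK7 encodes a receptor-like transmembrane protein with an inactive kinase domain. It acts in Wnt signalling, above all in planar cell polarity, the pathway that orients cells within a sheet through Frizzled, Celsr, Vangl, Prickle and Dishevelled proteins. An siRNA guides cleavage of the matching mRNA, so a lower mRNA signal of the targeted gene is what an array can show of a knockdown.

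With 1 array per group no difference here has a replicate check, and no p-value, standard error or confidence interval is given. Differences are on the log2 scale, PTK7 siRNA array minus control siRNA array, after background correction that adds 50 units to every spot (which shrinks the differences of dim genes) and quantile normalisation. A difference of 1 is 2-fold. A second value, called position-scaled, first removes what each spot's surroundings on the slide share. Deposited intensities are the authors' whole numbers above the blank spots, scaled so that each array has a median of 25.

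Both arrays were similar in depth. The array labelled PTK7 siRNA detected 22064 probes (90.2%) and the control siRNA array 22090 (90.3%), and blank spots averaged 61.6 and 60.8 units with SDs of 0.733 and 0.777. Defining liver and hepatocarcinoma markers were bright on both: deposited intensity of ALB was 12932 on the array labelled PTK7 siRNA, against 14421 on the control siRNA array, and that of AFP was 7793 and 7475 on the same arrays. All 9 measured hepatocyte markers and all 5 hepatocarcinoma markers were detected. The 7 detected cholangiocyte markers of 8 summed to 8427 and 7420 deposited units on the array labelled PTK7 siRNA and the control siRNA array. KRT19 alone gave 3101 and 1573 of these. Markers of the remaining cell types summed lower. The 5 detected fibroblast and stellate markers of 9 listed summed to 622 and 637 units on these arrays, mostly ACTA2. The 4 detected endothelial markers of 8 summed to 68 and 70. The 9 detected immune markers of 12 summed to 1066 and 870 units on these arrays, mostly LYZ, CD79A and CD68, and the 7 squamous epithelium markers of 8 to 2369 and 2432. LUM, POSTN, EMCN, PTPRC, CD163 and TP63 were not detected on both arrays.

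The single PTK7 probe sits in block 24, column 81, row 1 of the slide, and it is dim. Its spot median was 77.75 on the array labelled PTK7 siRNA, against 78.76 on the control siRNA array, so it stood 16.1 units above the blank mean on the array labelled PTK7 siRNA. The deposited intensities were 12 on the array labelled PTK7 siRNA, 14 on the control siRNA array and 25 on the villin siRNA array. The normalised difference was -0.05, and 515 of 1684 genes of like level (30.6%) differed by as much or more downwards. The normalised values therefore do not show the knockdown, and every direction below belongs to the array labelled PTK7 siRNA and not to a measured loss of PTK7. Of the 26 detected spots around the probe, 24 were higher on the array labelled PTK7 siRNA, with a median of 0.14, and 1 was as low as PTK7. After position scaling the PTK7 difference was -0.18, and 11 of the 1684 genes of like level (0.653%) were as low.

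VIL1, the actin-bundling villin targeted in the remaining culture, had deposited intensities of 1084 on the array labelled PTK7 siRNA, against 924 on the control siRNA array (block 3, column 48, row 2). Its difference was 0.28, and 0.50 after position scaling.

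Across the 15777 genes the arrays differed little. There were 16 genes at least 2-fold higher on the array labelled PTK7 siRNA (0.101%) and 2 at least 2-fold lower (0.0127%). At 1.5-fold there were 126 higher (0.799%) and 34 lower (0.216%). In the deposited values, which carry no offset, 362 genes were at least 2-fold higher (2.29%) and 436 lower (2.76%). The offset sets how the spread of differences runs with signal. In the plot of difference against level, which includes the offset, the SD was 0.065 in the dimmest quartile of genes and 0.261 in the brightest, while with plain subtraction of the blank mean it was 0.570 in the dimmest and 0.290 in the brightest.

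**Figure D1:**
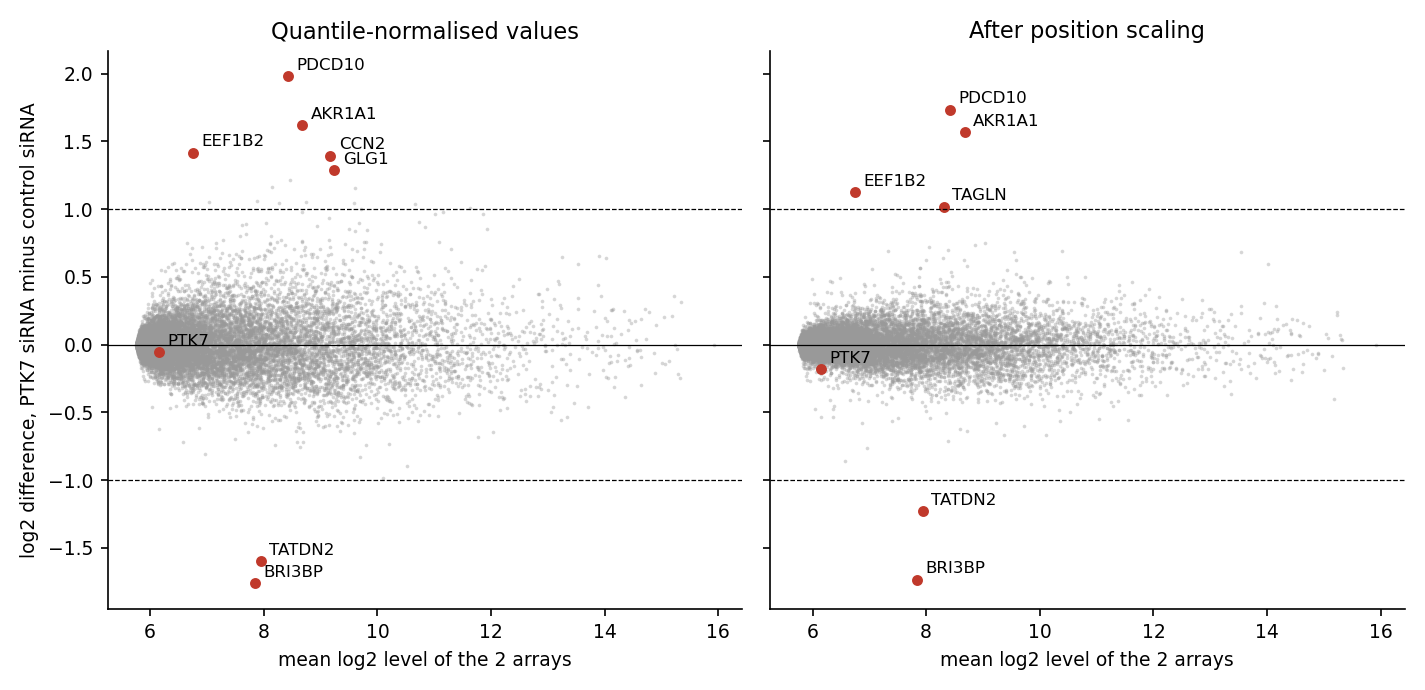
Log2 difference (PTK7 siRNA array minus control siRNA array) of each gene against its mean log2 level on the 2 arrays, in normalised values and after position scaling. The offset of 50 units narrows the cloud at low levels, and 16 genes lie above and 2 below the 2-fold lines in normalised values, against 4 and 2 after position scaling.

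Where a spot lay on the slide moved with its difference. The median difference of a block of spots was between -0.13 in block 5 and 0.15 in block 24. Block medians of the villin siRNA array against the same control ran from -0.12 in block 4 to 0.13 in block 24. Blocks 22 to 24 hold 12.8% of the genes and held 14 of the 16 that were 2-fold higher, 10 of them in block 24, which holds 4.27% of the genes. Blocks 1 to 6 hold 24.8% of the genes and held 27 of the 34 that were 1.5-fold lower. The outer 13 columns at either side hold 24.95% of the genes and 13 of the 16. At 1.5-fold, position scaling gave 17 genes higher (0.108%) and 10 lower (0.0634%), of which 10 and 6 were among those of the normalised values. At 2-fold it gave 4 genes higher (0.0254%) and 2 lower (0.0127%), of which 3 and 2 were among those of the normalised values. These 5 genes are PDCD10, AKR1A1, EEF1B2, BRI3BP and TATDN2, and the fourth higher gene was TAGLN. What part slide position has in a single gene's difference was not tested.

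**Figure D2:**
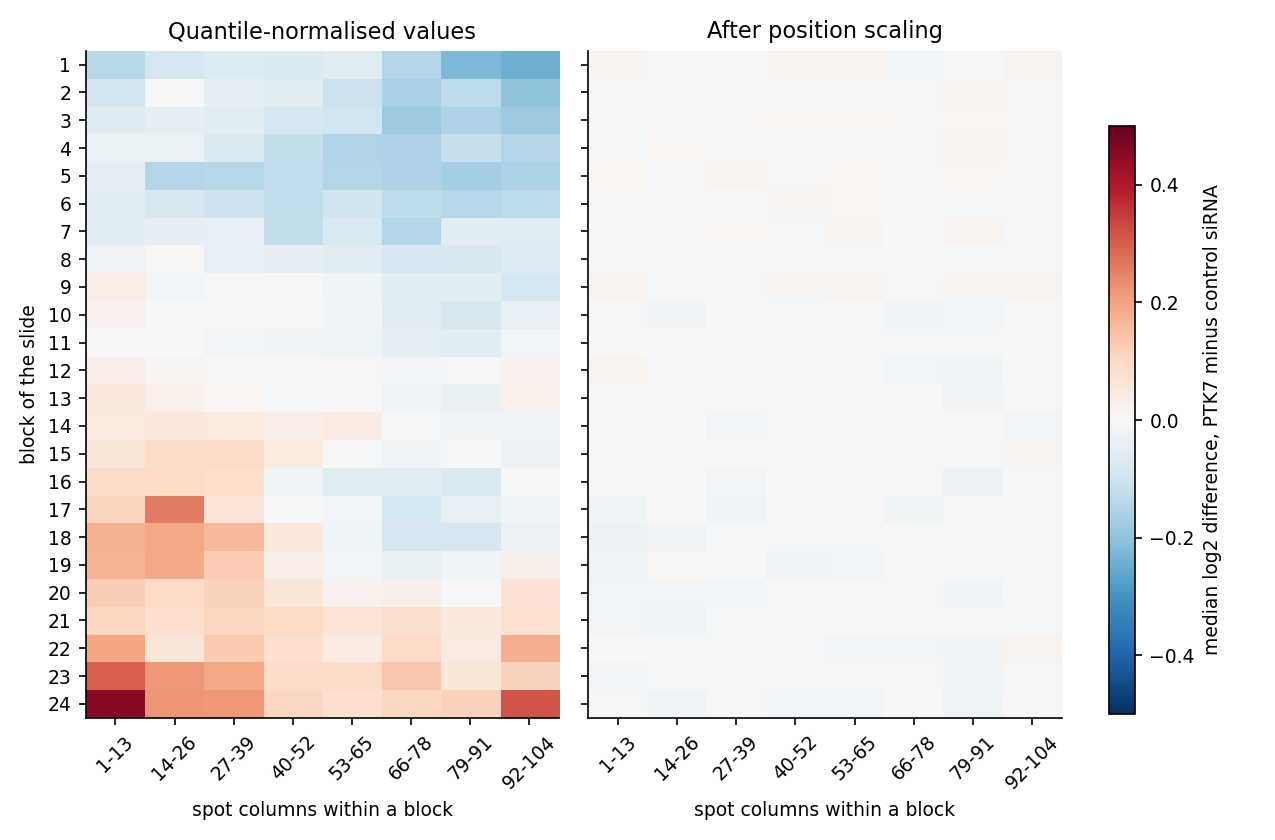
Median log2 difference (PTK7 siRNA array minus control siRNA array) by block (vertical axis) and column position within a block (horizontal axis), before and after position scaling. Blocks 22 to 24, above all at their outer columns, are higher on the array labelled PTK7 siRNA, and blocks 1 to 6 are lower.

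The lowest gene was BRI3BP, which encodes a membrane protein that binds BRI3. Its spot median was 129.6 on the array labelled PTK7 siRNA, against 395 on the control siRNA array and 361 on the villin siRNA array. Its probe lies in block 2, column 23, row 10. It was 3.39-fold lower (difference -1.76), and the position-scaled difference was -1.73. The 24 spots around it had a median of 0.00, and none was as low. The scanner's local background column at this spot read 115, 396 and 364 units on the array labelled PTK7 siRNA, the control siRNA array and the villin siRNA array, close to the spot itself.

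TATDN2, a TatD-family nuclease, had spot medians of 145.9 on the array labelled PTK7 siRNA, 402 on the control siRNA array and 344 on the villin siRNA array, in block 3, column 103, row 8. It was 3.02-fold lower (difference -1.60) and -1.23 after position scaling. None of 32 spots around it was as low, and their median was -0.12. Both genes were lowest on the array labelled PTK7 siRNA. Against the same control, the villin siRNA array differed by -0.45 for BRI3BP and -0.54 for TATDN2, and by -0.36 and -0.26 position-scaled.

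The highest gene was PDCD10, a scaffold protein of vascular and kinase complexes also known as CCM3. Its spot median was 663 on the array labelled PTK7 siRNA, against 167 on the control siRNA array, in block 24, column 38, row 10. The difference was 1.98, or 1.74 position-scaled, and none of 25 surrounding spots was as high (median 0.11). AKR1A1, an aldehyde reductase, had spot medians of 698 and 224 on the array labelled PTK7 siRNA and the control siRNA array (block 10, column 11, row 10), a difference of 1.62 and 1.57 position-scaled, beside 27 surrounding spots with a median of 0.00. EEF1B2, a guanine nucleotide exchange subunit of translation elongation factor 1, had deposited intensities of 88 and 10 on those arrays (block 23, column 13, row 10), a difference of 1.42 and 1.13 position-scaled.

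All 3 were lowest on the control siRNA array. On the villin siRNA array, which shares that control, the spot medians were 873 for PDCD10, 658 for AKR1A1 and 280 for EEF1B2. A single low control spot would raise both comparisons, and this cannot be told apart from a change in both cultures. PDCD10, AKR1A1, EEF1B2 and BRI3BP all lie in row 10 of their blocks, which holds 1315 of the 15777 genes.

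**Figure D3:**
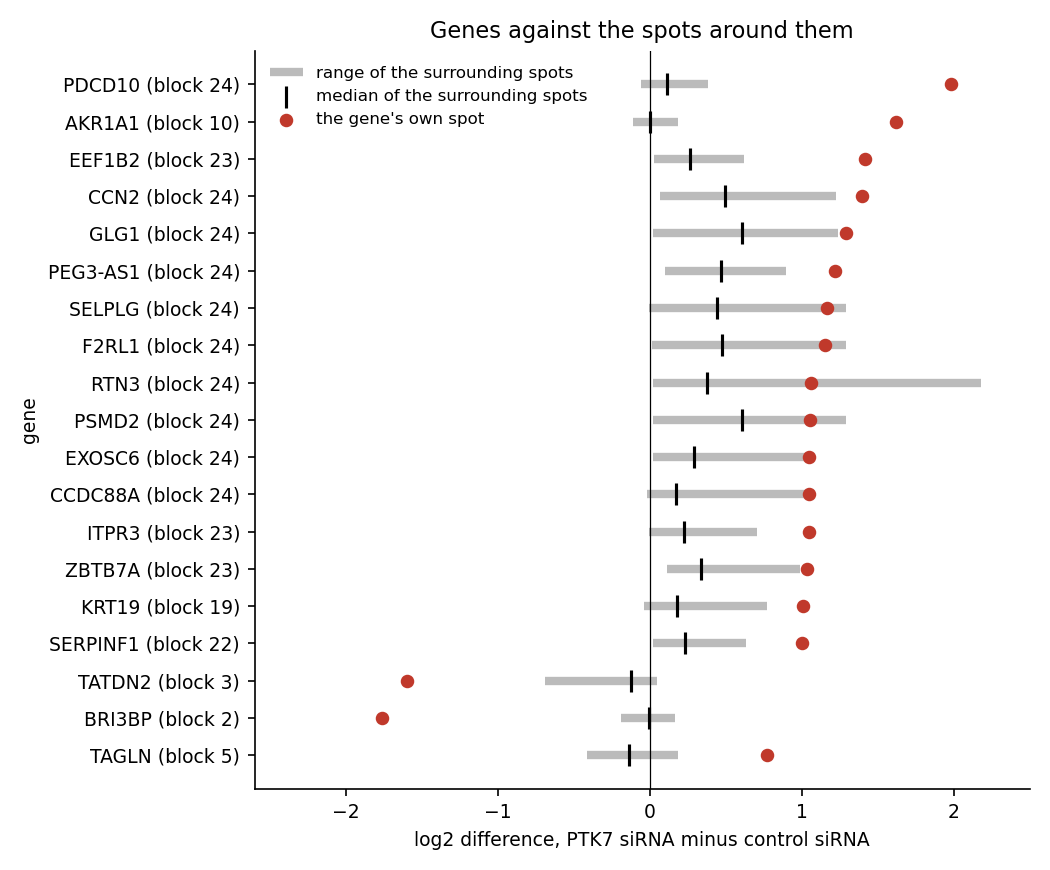
Log2 difference (PTK7 siRNA array minus control siRNA array) of each gene at least 2-fold apart and of TAGLN, as a point, against the range (grey bar) and median (tick) of the spots around it. PDCD10, AKR1A1, EEF1B2, TATDN2 and BRI3BP lie well outside their surroundings, while F2RL1, PSMD2 and SELPLG lie inside theirs.

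TAGLN, an actin-binding protein of contractile cells also called transgelin, had deposited intensities of 259 and 135 on the array labelled PTK7 siRNA and the control siRNA array, against 202 on the villin siRNA array (block 5, column 53, row 1). Its difference was 0.77, and 1.02 after position scaling, in a part of the slide where the surrounding spots were lower. A second TAGLN probe gave 0.40, and 0.64 position-scaled.

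The other 13 genes that were 2-fold higher lie in blocks 19 to 24, and their differences shrank to between 0.03 and 0.63 with position scaling. All 13 were also higher on the villin siRNA array against the same control, by 0.50 (CCDC88A) to 1.93 (F2RL1). Position-scaled, the villin siRNA array differed by -0.01 (PEG3-AS1) to 1.35 (KRT19) for these genes. CCN2, a matricellular protein and textbook target of the YAP coactivator, had deposited intensities of 628 on the array labelled PTK7 siRNA, against 216 on the control siRNA array (block 24, column 98, row 1). Its difference was 1.40, and 0.46 position-scaled, and the 23 spots around it had a median of 0.49. GLG1, a Golgi glycoprotein, was 1.29 higher (block 24, column 6, row 1) beside a surrounding median of 0.60, and 0.22 position-scaled. F2RL1, the protease-activated receptor PAR2, was 1.15 higher (block 24, column 10, row 1), and 0.11 position-scaled, with 3 of 28 surrounding spots as high. PSMD2, a subunit of the regulatory particle of the proteasome, gave 1.05 (block 24, column 5, row 1) and 0.03 position-scaled.

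Of the rest, ITPR3, an intracellular calcium channel gated by inositol trisphosphate, kept the largest position-scaled value: deposited intensities were 756 on the array labelled PTK7 siRNA, against 345 on the control siRNA array (block 23, column 70, row 1), with differences of 1.04 and 0.63. KRT19, a keratin of simple epithelia and bile duct cells, had 3101 and 1573 on the same arrays (block 19, column 17, row 1), a difference of 1.01 and 0.46. SERPINF1, which encodes the secreted serpin PEDF, was 2.01-fold higher, with a position-scaled difference of 0.46 (block 22, column 104, row 2). ZBTB7A, a transcriptional repressor, differed by 1.04 (block 23, column 1, row 2) and by 0.10 position-scaled, and its second probe, at 5 deposited units on both arrays, was too dim to check it. PEG3-AS1, SELPLG, RTN3, EXOSC6 and CCDC88A, all in block 24, make up the remainder, with 1.22, 1.17, 1.06, 1.05 and 1.05. SQSTM1, the autophagy receptor p62, lay just inside 2-fold, with 0.98 and 0.62 position-scaled.

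**Figure D4:**
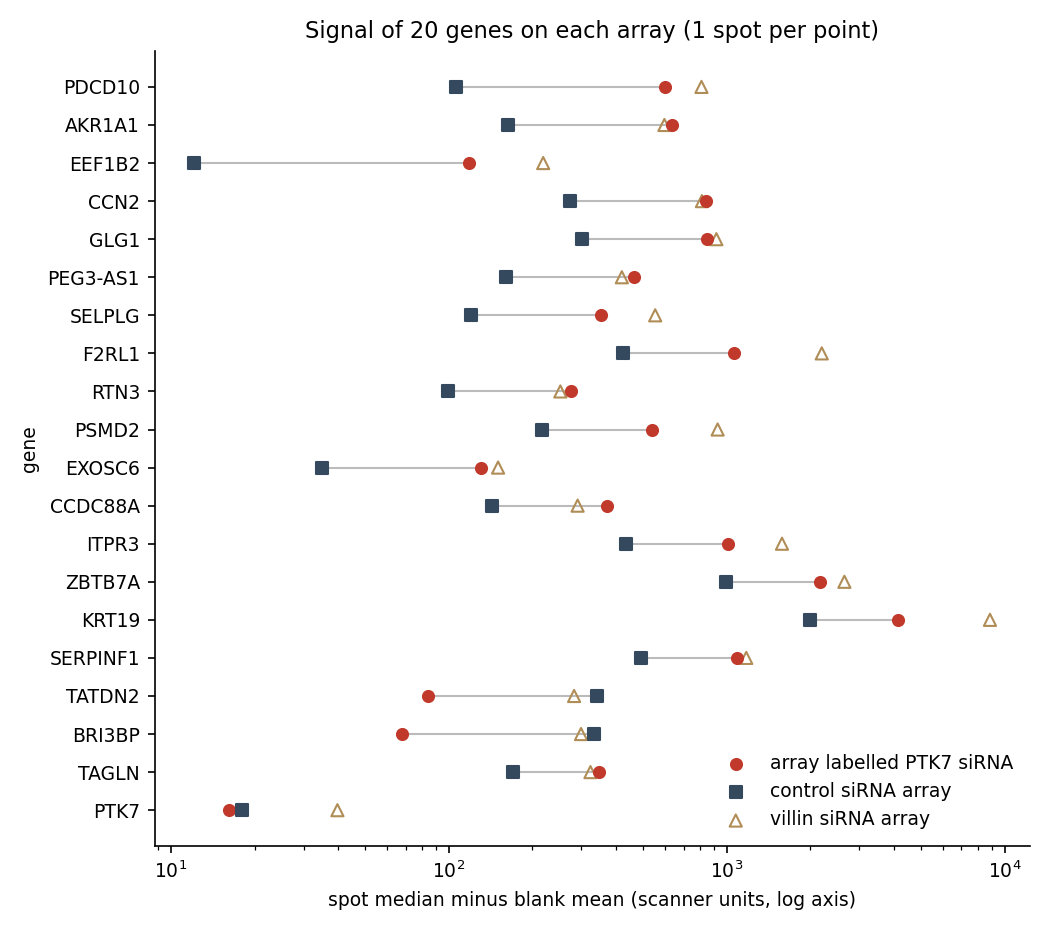
Signal above the blank spots (log axis) on the array labelled PTK7 siRNA, the control siRNA array and the villin siRNA array for the genes at least 2-fold apart, TAGLN and PTK7. BRI3BP and TATDN2 stand apart on the array labelled PTK7 siRNA, PDCD10, AKR1A1 and EEF1B2 on the control siRNA array, and PTK7 is dim on every array.

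Below BRI3BP and TATDN2 the next lowest genes were smaller differences. EIF4H, a translation initiation factor that stimulates the helicase EIF4A, had deposited intensities of 523 on the array labelled PTK7 siRNA, against 1096 on the control siRNA array, a difference of -0.98 and -0.67 position-scaled (block 2). SLC7A1, the cationic amino acid transporter CAT-1, had 29 and 79 on these arrays, against 87 on the villin siRNA array, a difference of -0.81 and -0.76 position-scaled. HOXD1, a homeobox gene, differed by -0.72 and -0.62, but its second probe gave -0.17. RPL10L, a retrogene close in sequence to RPL10 whose signal the probe may share, differed by -0.90 and -0.49. NAT10, TGFBR3 and FADS1 differed by -0.83, -0.74 and -0.64, and by -0.25, -0.43 and -0.43 position-scaled. Of the 20 lowest genes above the median level, only BRI3BP, TATDN2, EIF4H, SLC7A1 and HOXD1 stayed beyond 1.5-fold after position scaling. Blocks 1 to 6, which hold 24.8% of all genes, held 17 of the 20.

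Position scaling also brought up genes that the normalised values rank lower. KRTAP3-1, a hair keratin-associated protein, went with TAGLN as a gene whose second probe was also at least 1.5-fold higher (0.75 position-scaled, second probe 0.62). LYZ, the secreted enzyme lysozyme, had deposited intensities of 383 on the array labelled PTK7 siRNA, against 226 on the control siRNA array, with a position-scaled difference of 0.73. ANKRD1, a nuclear ankyrin repeat protein and YAP target, had 240 and 163, with 0.70. KRT80 had 0.69, and its second probe, at 7 deposited units on the array labelled PTK7 siRNA, against 6 on the control siRNA array, was too near the blank to check it. At the low end were SUN1, a nuclear envelope protein with -0.71 (second probe -0.11), and BBC3, the pro-apoptotic PUMA protein, with -0.60 after position scaling and 0.05 before. Against the same control, the villin siRNA array gave position-scaled differences of 1.61 for KRTAP3-1, 0.93 for LYZ, 0.83 for ANKRD1 and 0.63 for KRT80. For SUN1 and BBC3 that array gave 0.01 and -0.55.

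Among 3654 probes without a gene name, 4 were at least 2-fold higher on the array labelled PTK7 siRNA (0.109%) and 0 lower (0%), all in block 24, the largest with differences of 2.18 and 1.28 position-scaled.

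Genes with more than 1 probe give a check within the arrays. Over 1972 genes with both probes detected, the difference of the brightest probe correlated with that of the second at r = 0.159 in normalised values and 0.321 after position scaling (Pearson, across genes on 2 arrays, a description only). Of 25 genes at least 1.5-fold apart by the brightest probe, 20 had a second probe with the same direction and 2 a second probe beyond 1.5-fold. Over the 628 genes with both probes above the median level r was 0.236, and 0.442 after position scaling. After position scaling it was 5 genes, 5 with the same direction and 2 beyond 1.5-fold.

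Of the planar cell polarity genes, which include PTK7 itself, 28 of 30 listed genes were detected on both arrays. The array labelled PTK7 siRNA was higher for 11 and lower for 17, and none was beyond 1.5-fold in normalised values, against 0.799% and 0.216% of all genes. At shares this small, the absence of such genes from a list this short says nothing about its members, here and in the lists below. The offset also shrinks dim members. In the deposited values, which carry no offset, WNT5B was 2.67-fold higher, and PRICKLE3 and FUZ were 1.5-fold lower. In those values 84.4% of all genes lay within 1.5-fold. The list's median was -0.0049 in normalised values and -0.013 position-scaled, beside -0.0071 and -0.0029 over all genes, of which 47% and 48.4% were above 0. Among ligands, WNT5B had deposited intensities of 16 on the array labelled PTK7 siRNA, against 6 on the control siRNA array, with 0.32 and 0.31 position-scaled, and WNT11 had 11 and 12. Among receptors and co-receptors, FZD7 had 53 and 63 (-0.17 and -0.16), FZD3 37 and 31, FZD6 43 and 48, ROR1 14 and 15, ROR2 29 and 33, and RYK 51 and 53.

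The core polarity proteins of the same list spread around 0. CELSR2, an atypical cadherin, had deposited intensities of 336 on the array labelled PTK7 siRNA, against 259 on the control siRNA array, with 0.33 but 0.05 position-scaled. VANGL1 had 99 and 95, and VANGL2, at 5 on both arrays, was near the floor. DVL3, a Dishevelled adaptor, had 72 and 49, with 0.34 and -0.05, and DVL1 had 2321 and 2241. SCRIB, a polarity scaffold, had 642 and 748, with -0.17 and -0.12, and DAAM1, a formin downstream of Dishevelled, had 249 and 218 with 0.17 but -0.20. DAAM2 gave -0.26 and -0.03. WNT5A and DACT1 were not detected on both arrays.

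Genes downstream of noncanonical Wnt signals (small GTPases, ROCK and JNK kinases) gave 14 higher and 10 lower of 24, with a median of 0.02 in both scalings. LIMK2, a kinase that acts on cofilin, had deposited intensities of 111 on the array labelled PTK7 siRNA, against 162 on the control siRNA array (-0.44 and -0.24), and YES1, a Src family kinase, had 385 and 280 (0.41 and -0.13). In the canonical pathway 15 of 32 components were higher, and 10 after position scaling, with medians of -0.02 and -0.03. GSK3B had 146 and 188, a difference of -0.31 but 0.06 position-scaled. Of 25 genes known to respond to beta-catenin 9 were higher and 16 lower, with medians of -0.08 and -0.05. The 4 largest differences were CD44, ZNRF3, SP5 and MYC, with -0.33, -0.31, -0.29 and -0.28. Position-scaled, they were -0.11, -0.06, -0.13 and 0.01. SP5 had 1981 and 2535. AXIN2, which is not among these leading members, had 98 and 75 (0.26 and -0.05). None of these 3 lists had a member beyond 1.5-fold in either scaling. The offset shrinks dim members here too. CD44 had deposited intensities of 20 on the array labelled PTK7 siRNA, against 35 on the control siRNA array, and PORCN had 30 and 19. Of the proteases and inhibitors that process PTK7 and similar receptors, 7 of 12 were higher, and TIMP2, a metalloproteinase inhibitor, was the highest in normalised values (0.38, and 0.32 position-scaled).

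Cell adhesion lists had medians above 0. Of 33 epithelial junction genes, which seal and anchor neighbouring cells, 22 were higher and 25 after position scaling, with a median of 0.11 in both. EPCAM, an epithelial adhesion molecule, had deposited intensities of 2240 on the array labelled PTK7 siRNA, against 1414 on the control siRNA array, with 0.71 and 0.28. Its second probe gave 0.35 and 0.59. CLDN4, a tight junction claudin, had 78 and 50 (0.40 and 0.36), while CLDN3 and CDH2, in blocks 22 and 24, gave 0.50 and 0.48 but 0.11 and 0.17 position-scaled. Of 6 simple epithelial keratins 5 were higher, and 4 position-scaled, with a median of 0.43 and 0.30. KRT23 had 143 and 66 (0.80 and 0.45), and KRT18 had 12049 and 9959 (0.44 but -0.08). On the villin siRNA array, which shares the control, the same lists had medians of 0.09 and 0.45 before, and 0.11 and 0.49 after position scaling.

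Integrins and focal adhesion genes gave 13 of 20 higher, with a median of 0.10 and 0.04 position-scaled. The 4 largest were ITGA2, ITGB1, ITGAV and ITGA1, with 0.80, 0.76, 0.66 and 0.45, and they shrank to 0.39, 0.13, 0.22 and 0.22. ITGB1, the common beta subunit, had deposited intensities of 790 on the array labelled PTK7 siRNA, against 452 on the control siRNA array, in block 24. Against the same control, the villin siRNA array had medians of 0.19 and 0.14 for the integrin and focal adhesion list. Of 21 YAP and TEAD genes 15 were higher, with a median of 0.03. CCN1, a matricellular relative of CCN2, had 518 and 365 (0.47 and 0.31), and TEAD4, a DNA-binding partner of YAP, had 326 and 451 (-0.43 and -0.31).

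**Figure D5:**
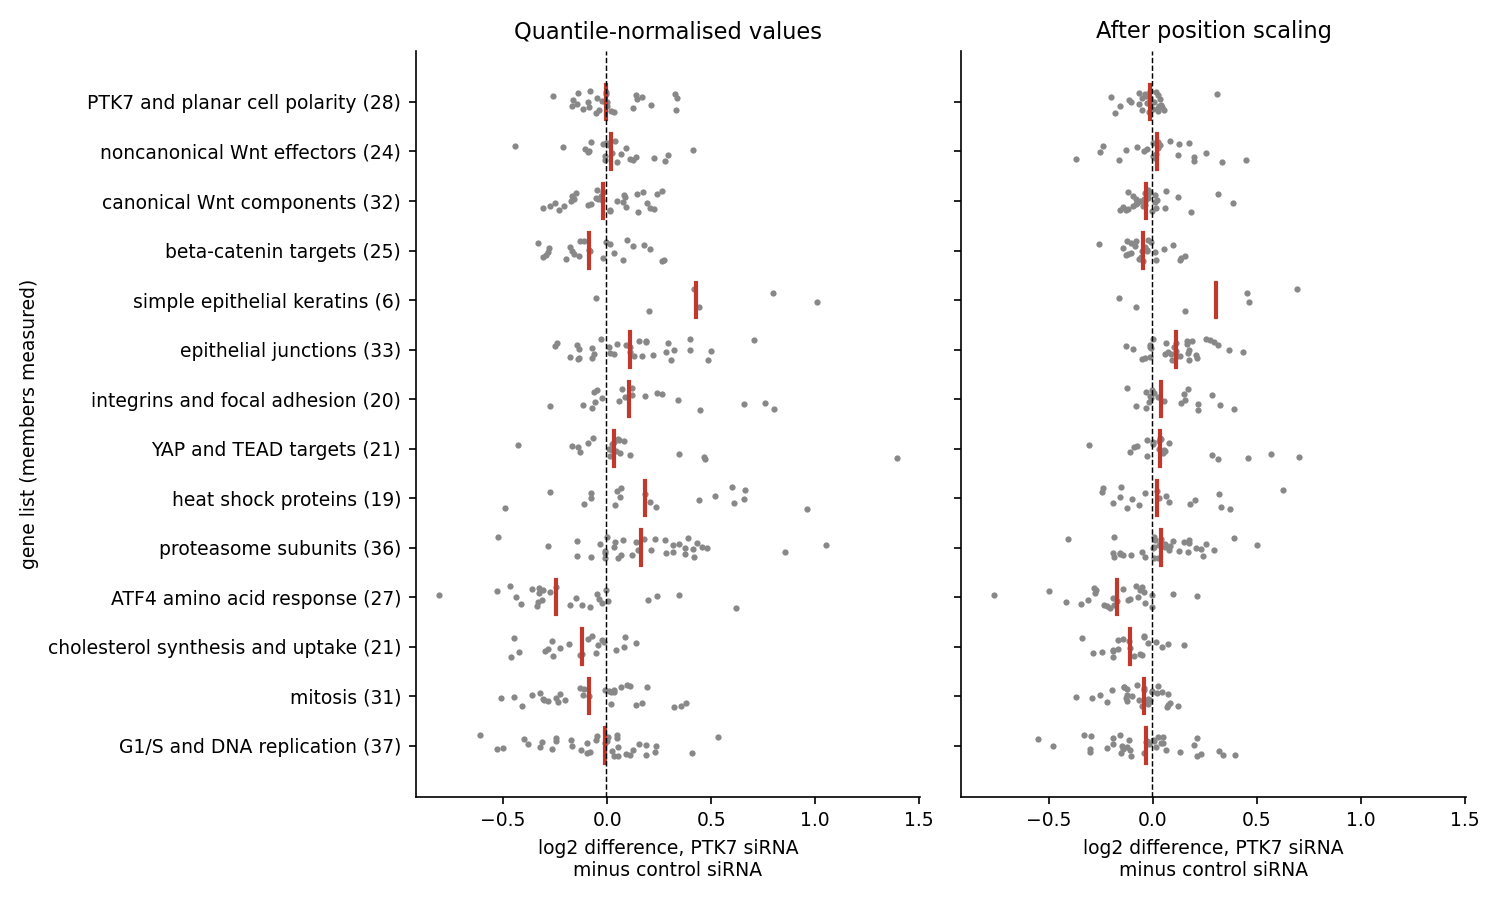
Log2 difference (PTK7 siRNA array minus control siRNA array) of each detected member (points) and the median (bar) of 14 gene lists, in normalised values and after position scaling. Of these lists, simple epithelial keratins lie highest, at 0.43 and 0.30, the ATF4 list lowest, at -0.25 and -0.17, and the heat shock list moves to 0.02 with position scaling.

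Genes of the ATF4 amino acid response, which supply amino acids, tRNA synthetases and stress factors when translation is restrained, lay low. Of 27 detected members 22 were lower and 5 higher, and 25 and 2 after position scaling, with medians of -0.25 and -0.17. In normalised values SLC7A1 was the one member beyond 1.5-fold in that direction (0.216% of all genes), and ATF4 the one in the other (0.799%). NUPR1, a stress-induced nuclear protein, had deposited intensities of 158 on the array labelled PTK7 siRNA, against 243 on the control siRNA array, with -0.53 and -0.50. CARS1, the cysteine tRNA synthetase, had 429 and 615 (-0.47, but -0.08 position-scaled). ASNS, asparagine synthetase, named after its values were seen, had 879 and 1227 (-0.41 and -0.34). The ATF4 probe itself lies in block 24 and gave 0.62 but -0.21 position-scaled, and a second probe, at 6 deposited units on both arrays, was too dim to check it. The villin siRNA array, against the same control, had list medians of -0.24 and -0.26. SLC7A1 was not low there (0.04 and 0.16 position-scaled). A high signal of these genes on the shared control array cannot be told apart from a change in both cultures.

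Cholesterol synthesis genes gave 17 of 21 lower in both scalings, with medians of -0.12 and -0.11 and no member beyond 1.5-fold. SREBF2, the transcription factor that drives this pathway, had deposited intensities of 269 on the array labelled PTK7 siRNA, against 383 on the control siRNA array (-0.45 and -0.34). HMGCS1, a synthase of the mevalonate pathway, had 321 and 456 (-0.46 and -0.19), FDPS had 1833 and 2606 (-0.42 and -0.24), and FDFT1, the squalene synthase, had 1880 and 2393 (-0.30 and -0.19). The villin siRNA array had medians of -0.13 and -0.11 against that same control.

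Stress and protein turnover lists had other medians under position scaling. Of 19 heat shock genes 14 were higher, 5 of them beyond 1.5-fold. Over all genes, 47% were above 0 and 0.799% at least 1.5-fold higher, or 48.4% and 0.108% position-scaled. Blocks 19 to 24, which hold 25.2% of all genes, held 9 of the 19. The median was 0.18, but 0.02 position-scaled, with 1 gene beyond 1.5-fold, CRYAB, a small heat shock protein (deposited intensities of 194 on the array labelled PTK7 siRNA, against 107 on the control siRNA array, 0.66 and 0.62). HSPA1A gave 0.96 and 0.37, and its second probe 0.45 and -0.09. A near-identical copy, HSPA1B, gave -0.49 and -0.13. Proteasome subunits had 26 of 36 higher, with a median of 0.16 and 0.04. Translation factors had 32 of 49 lower and a median of -0.11, but -0.015 position-scaled, and the respiratory chain list turned over, with 20 of 50 higher before and 35 after. Mitosis genes had 17 of 31 lower, and 23 position-scaled, with medians of -0.09 and -0.04.

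Liver functions split by list. Of 24 hepatocyte secreted proteins 9 were higher and 14 after position scaling, with medians of -0.02 and 0.01. APOC3 gave 475 and 658 deposited units on the array labelled PTK7 siRNA and the control siRNA array (-0.41 and -0.24), while TTR gave 683 and 503 (0.43 and 0.44). Of 27 genes of drug and bile acid metabolism 6 were higher and 21 lower, and 8 and 19 position-scaled, with medians of -0.05 and -0.03. The highest of the list, CYP1A1 in block 24, had 1138 and 780 (0.57 and 0.32), with 1.11 and 0.42 at its second probe. Interferon and antigen presentation genes had 17 of 32 higher and 22 position-scaled, and RNA interference factors 5 of 16 and 8. The 15 detected reference genes had 7 higher in both scalings.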

How the data were processed

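Per the labels' protocols, amplified RNA carrying Cy5 was hybridised, 1 colour per array. Scanner files hold spot median intensities, not normalised, per the file headers. The authors' deposited table holds whole-number intensities that equal, within 1 unit, signal above the mean of the blanks over a scale factor (1.34 for the PTK7 siRNA array, 1.26 for the control). Here, the mean of blank spots was the background (normexp, offset 50), followed by quantile normalisation over 3 arrays (limma 3.58.1, R 4.3.3; Python 3.11.15). Position scaling divided each signal by the local median deviation in a window of 11 columns by 5 rows. Differences are ratios within log2 values. The brightest probe stood for a gene. Older symbols were updated through unique RefSeq synonyms. Named genes were PTK7, VIL1, every gene 2-fold apart, the 20 highest and lowest above the median level, the 10 highest and lowest after position scaling, all planar cell polarity genes, and up to 4 members of each of 49 lists. AXIN2, CLDN4, HSPA1B and ASNS fall outside this rule. Members and lists were chosen with earlier results of these data known. Background correction and quantile normalisation were tried on arrays simulated from the control array, with no slide gradient added. Position scaling was not tried on them.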

Additional observations from a re-analysis of the deposited data

How the results depend on the processing

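No paired analysis was possible because each group has 1 array. The count of genes at least 2-fold higher, 16 in normalised values, was 362 with the deposited values, 259 with plain subtraction of the blank mean, 361 with the scanner's background column, 44 with an offset of 10, 4 with position scaling, 94 with position scaling and plain subtraction, 8 with block medians subtracted, 1 in blocks 1 to 18 alone and 126 at 1.5-fold. The count lower, 2, was 436, 179, 314 and 7 in the first 4 of these, 89 with position scaling and plain subtraction and 34 at 1.5-fold. Block median subtraction and blocks 1 to 18 were chosen after seeing the data. The PTK7 difference, -0.05, was -0.22 with the deposited values, -0.21 with plain subtraction, -0.67 with position scaling and plain subtraction and -0.20 with block medians subtracted, and it was 0.0542 with the background column. AKR1A1 kept its direction in 15 of 15 alternatives and EEF1B2 in 14 of 14; BRI3BP and TATDN2 did in 14 of 15 and PDCD10 in 13 of 14. With the scanner's background column, which tracks the spot signal, the sign turned for 125 of the 247 genes the naming rule covers, and for 33 of the 64 at least 1.5-fold apart. Among genes at least 2-fold apart these were BRI3BP (0.12), TATDN2 (0.0359), PDCD10 (-0.54), ITPR3 (-0.38), ZBTB7A (-0.33), CCDC88A (-0.0478), GLG1 (-0.0309) and PSMD2 (-0.0539), and others included FDPS (3.91), SP5 (2.89), ITGB1 (-2.72), RPL10L (1.74), VIL1 (-1.01), KRT18 (-0.83), HSPA1A (-0.62) and SQSTM1 (-0.40). Some list medians turned sign with that column too: the ATF4 list (0.02), simple epithelial keratins (-0.10), integrins (-0.008), heat shock genes (-0.015) and proteasome subunits (-0.017). Those of epithelial junctions (0.02) and cholesterol synthesis (-0.07) kept their sign. The cause of these changes was not tested. Dim signal limits the PTK7 value: at 12 and 14 deposited units on the array labelled PTK7 siRNA and the control siRNA array, the offset shrinks its difference.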

Other observations

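Genes detected on 1 of these arrays have only a bound. There were 363 detected on the array labelled PTK7 siRNA alone and 374 on the control siRNA array alone. LCE1B, ATP10A and NPR3 were at least 1.21-, 1.19- and 1.13-fold higher on the array labelled PTK7 siRNA, and TMPRSS11F, CCDC7 and FAM47E were at least 1.68-, 1.18- and 1.18-fold higher on the control siRNA array.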
